A study of Mus musculus with 6 samples.

Results

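The transcripts described here encode the machinery by which newly made proteins enter the endoplasmic reticulum (ER), measured in an anti-FLAG RNA immunoprecipitation sequencing (RIP-seq) experiment on the RNA-binding protein LIN28B in mouse B cell progenitors. The set holds 36 genes of the 54752 gene rows in the expression table, chosen by name for the known place of their products in 8 complexes or enzyme groups. All 36 reached at least 10 FPKM (fragments per kilobase of transcript, scaled to the depth of the library) in each of the 3 input libraries, the limit that 5783 genes passed and that decided which genes were tested.

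Proteins bound for the cell surface or for secretion carry a signal sequence that the signal recognition particle (SRP) binds as it leaves the ribosome. The SRP receptor then docks the ribosome at the Sec61 channel, through which the chain passes into the ER, helped in some cases by the TRAP complex, TRAM, Sec62 and Sec63. Signal peptidase removes the signal sequence, oligosaccharyl transferase (OST) attaches N-linked glycans, calnexin and calreticulin bind glycoproteins that are still folding, and disulfide isomerases form and rearrange their disulfide bonds. B cell progenitors use this route for the pre-B cell receptor, its signalling chains and the IL-7 receptor. LIN28 proteins are best known for binding the precursors of let-7 microRNAs, in part through a GGAG sequence, and they also bind many mRNAs.

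The 2 tet-LIN28B mice carried a single copy of a Dox-inducible, FLAG-tagged human LIN28B cDNA at the Col1a locus (Col1a tetO-LIN28B) together with the rtTA-M2 activator at Rosa26. The littermate control was heterozygous for Rosa26 rtTA-M2 and had no FLAG-tagged protein, so that its IP gave the background of the procedure. All 3 were adult and untreated. Bone marrow of each mouse was expanded over 5 days in medium with IL-7 (20 ng/mL), with Dox added when the culture began, so the control cells received rtTA and Dox as well. The labels give Dox at 0.1 mg/mL, while the methods of the study give the unit as µg/mL. The rtTA activator is made in most cell types, so the design did not limit induction to B cells, and LIN28B was expressed in adult cells that normally make little of it. Each mouse gave 1 input and 1 anti-FLAG IP library from 1 lysate. The sample titles and the table's column names agree on which library is the IP, whereas a line of the sample descriptions names the opposite fraction. Titles and column names were followed. With them, the FPKM sums were 1322647 and 1364337 in the inputs of tet-LIN28B mice and 1384941 in the control input. The sums were 1262958 and 1232800 in the tet-LIN28B IPs and 1144868 in the control IP. The study's own list of FPKM sums assigns the fractions in the same way. Among these sources only the descriptions name the opposite fraction, and every ratio below would be inverted if they were right.

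Whole-fragment steps in the lowest FPKM values gave estimated depths between 14400000 and 21600000 fragments per library. The fewest fragments behind any value of an ER entry transcript were an estimated 167, for Sec61g in the IP of tet-LIN28B mouse 1. That count took no account of fragment length. B cell progenitor markers (10 genes) summed to 6964 and 8198 FPKM in the inputs of tet-LIN28B mice and 8144 FPKM in the control input, and none was below 1 FPKM there. The 7 myeloid markers summed to 7426 and 4645 FPKM in the inputs of tet-LIN28B mice and 6394 FPKM in the control input, nearly all of it from S100a8, S100a9 and Lyz2, and to 2527 and 1670 FPKM in the tet-LIN28B IPs and 2773 FPKM in the control IP. T and NK cell markers summed to 96.4 and 32.1 FPKM in the inputs of tet-LIN28B mice and 31.0 FPKM in the control input. Plasma cell markers summed to at most 32.4 FPKM, with Prdm1 and Tnfrsf17 below 1 FPKM in every input. The cultures thus held transcripts of cells other than B cell progenitors, whose part in the results was not tested, and in bulk libraries fewer cells of a type and less RNA per cell cannot be told apart. In the inputs mouse Lin28b was listed at 0.62 and 1.03 FPKM for tet-LIN28B and at 0.01 FPKM for the control; the transgene carries human sequence, and how far its reads enter these values was not tested.

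To ask whether LIN28B expression altered the levels of the ER entry transcripts before the IP, the inputs were compared. No member passed the test between the tet-LIN28B inputs and the control input (limma on log2(FPKM + 1), Benjamini-Hochberg adjusted p under 0.05), where 1 of the 5783 genes was higher (0.0173%) and 0% were lower. At an unadjusted p under 0.05 there were 2 members, against 397 of the 5783 genes. These 2 were Srpr, which had 26.7 and 30.8 FPKM in the inputs of tet-LIN28B mice against 62.3 FPKM in the control input, and Sec63, which had 71.6 and 77.4 FPKM against 109 FPKM. Across the set, input levels were spread over a wide range. Sec61b, a small subunit of the channel, was the most abundant with 1551 and 1848 FPKM in the inputs of tet-LIN28B mice and 1779 FPKM in the control input, and Srprb, the membrane-anchored subunit of the SRP receptor, was the lowest with 14.2 and 15.9 FPKM in the inputs of tet-LIN28B mice and 15.4 FPKM in the control input.

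Enrichment was measured as the IP/input ratio of FPKM within each mouse, and tested as log2((IP + 1)/(input + 1)), a scale that slightly understates changes of low values. The ER entry transcripts did not move as a block. In tet-LIN28B cells 14 of 36 (38.9%) were higher in the IP than in the input, against 21.96% of all genes tested, and 11 (30.6%) were lower, against 43.7% of all genes (limma, adjusted p under 0.05). The median log2 ratio of the set was −0.06, against −0.33 over all genes. The control IP has no LIN28B to capture, and its median log2 ratio was 0.15 for the set and −0.03 over all genes. With 2 tet-LIN28B mice and 1 control mouse the fit had 1 residual degree of freedom, so the error of each gene was mostly borrowed from the other genes, and the spread of the single control mouse was taken to equal that of the tet-LIN28B mice.

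At the study's threshold for an enriched transcript, an average IP/input ratio above 2 over both tet-LIN28B mice, 6 members qualified among the genes tested here (16.7%, against 10.03% of all genes tested). They were Rpn1, Canx, Rpn2, Srp9, Spcs3 and Srp14, with average ratios between 2.04 and 2.86. With the study's filter as well, at least 50 FPKM in all 4 tet-LIN28B libraries, 5 of them remained without Spcs3, out of 19 members (against 16.3% of all genes passing). Rpn1 and Canx alone exceeded 2 in each of the 2 mice. At the other end 5 members averaged below 0.5 (13.9%, against 30.5% of all genes), namely Dad1, Ssr4, Sec61g, Spcs1 and Spcs2. In the control no member was above 2, against 3.44% of all genes, and Sec61g alone was below 0.5, against 2.87% of all genes.

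**Figure D1:**
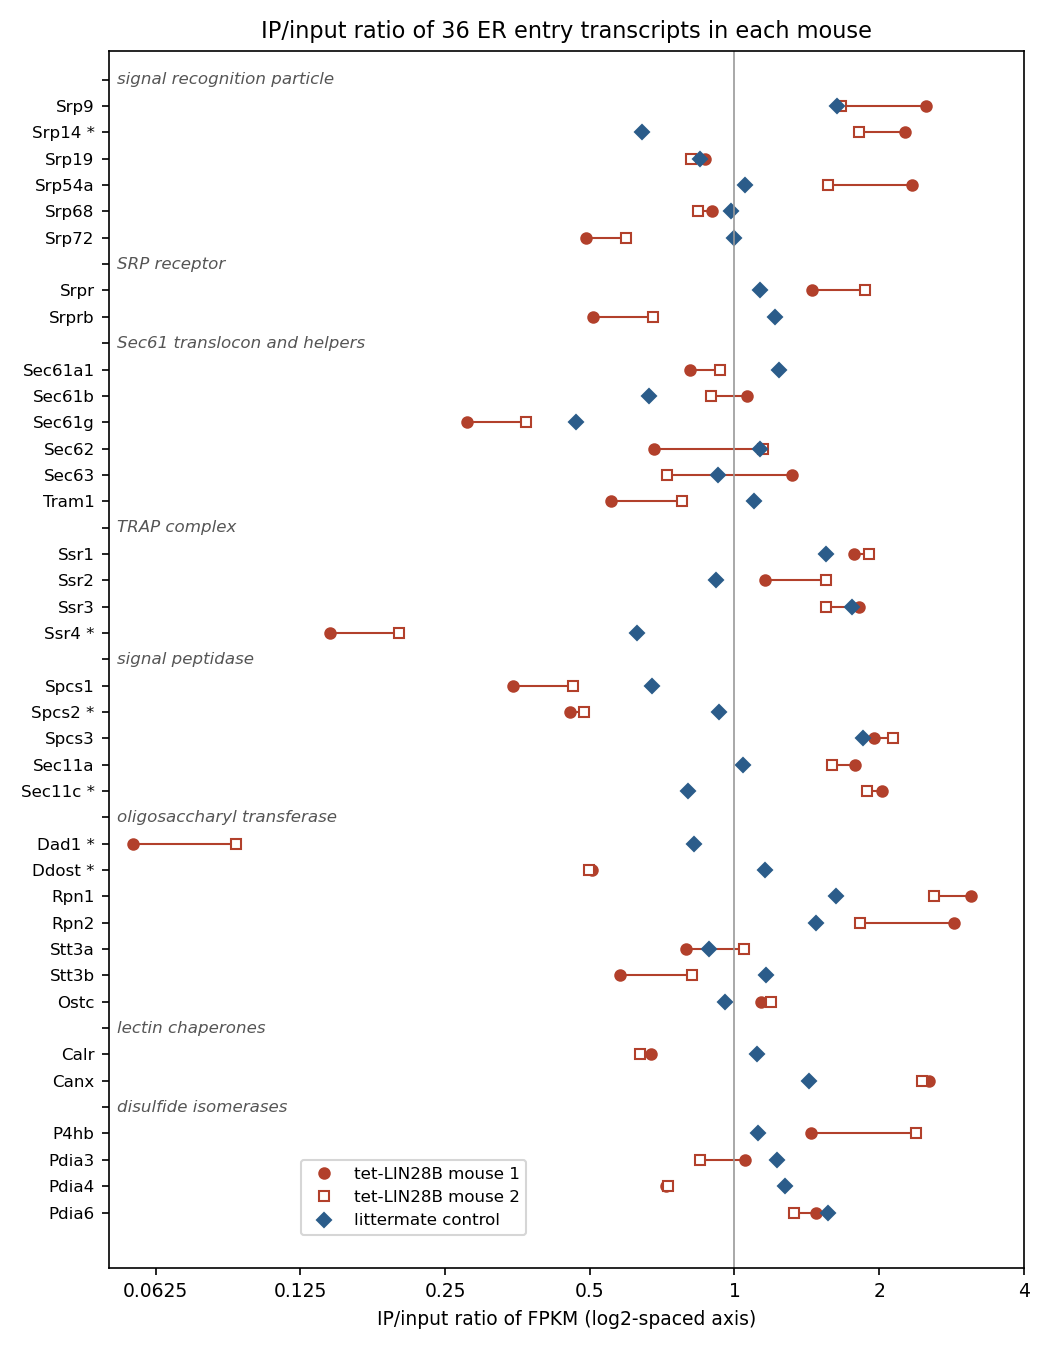
IP/input ratio of FPKM for each of the 36 ER entry transcripts (rows, grouped by complex) on a log2-spaced axis, with tet-LIN28B mouse 1 as filled circles, tet-LIN28B mouse 2 as open squares joined to it by a line, and the littermate control as diamonds; an asterisk marks a difference from the control at an adjusted p under 0.05. Dad1 lies farthest to the left at 0.0561 and 0.0919 in the tet-LIN28B mice, against 0.823 in the control, while Rpn1 lies farthest to the right at 3.11 and 2.61, against 1.62.

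Since a transcript can be recovered by the beads without LIN28B, the tet-LIN28B ratios were set against the control ratio. Only 6 of the 36 differed by this test: Srp14 and Sec11c were higher (5.56%, against 7.18% of all genes tested), and Dad1, Ssr4, Ddost and Spcs2 were lower (11.1%, against 24.8% of all genes). The share called higher was close to that of all genes, and the share called lower was below it. In both tet-LIN28B mice the ratio was above the control ratio for 15 members (41.7%, against 28.8% of all genes) and below it for 16 (44.4%, against 59.5%), and for the other 5 the control lay between the mice. The median log2 difference of the set was −0.04, against −0.37 over all genes, so the IP of tet-LIN28B cells was lower relative to its input than the control IP for most genes. When each mouse's ratios were centred on their own median, the calls became 5 higher (13.9%, against 12.2% of all genes) and 3 lower (8.33%, against 18.6% of all genes). Srp54a, Rpn1 and Canx were then added to the higher ones, and Spcs2 was no longer called lower (adjusted p = 0.144). For IP over input, centring gave 16 higher (against 33.1% of all genes) and 7 lower (against 34.8%). The filter of 50 FPKM left 1460 genes and 19 members. Among them 11 were higher (against 35.8% of all genes passing) and 3 lower (against 35.1%) in the IP, and 5 were higher (against 23.2%) and 3 lower (against 22.2%) than the control. That filter uses the IP itself and removed Dad1, Ssr4 and Ddost.

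**Figure D2:**
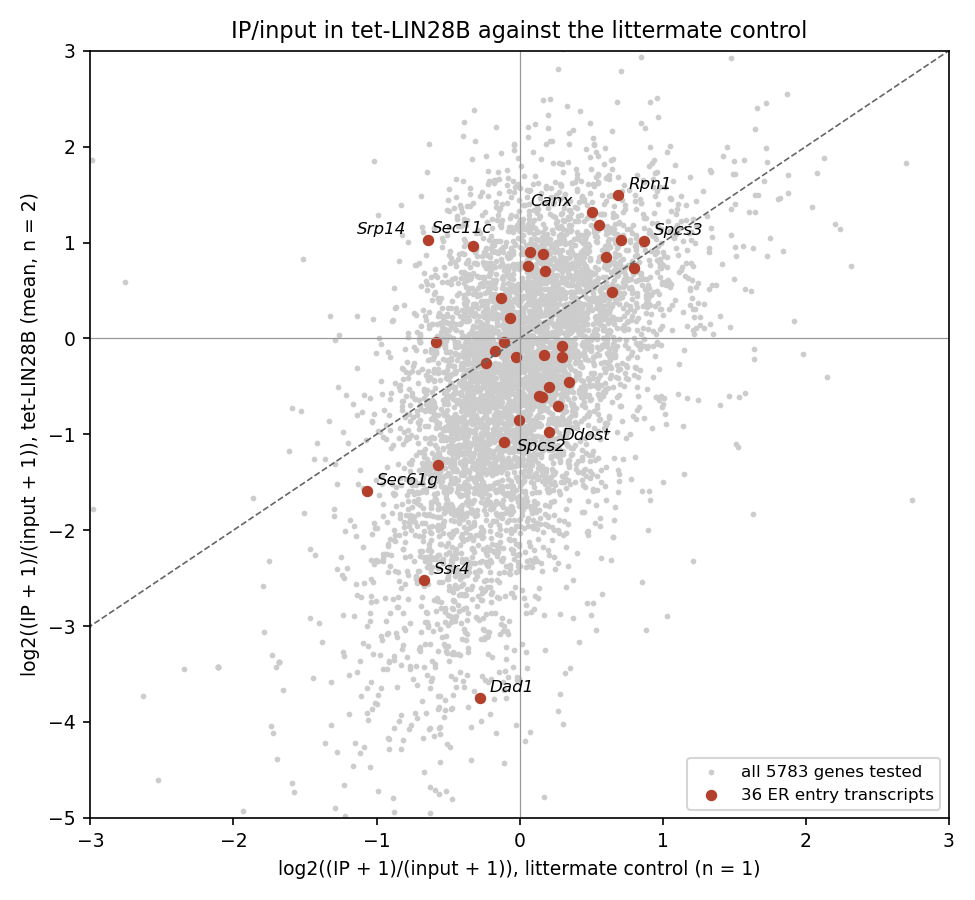
Mean log2((IP + 1)/(input + 1)) of the 2 tet-LIN28B mice (vertical) against the value of the littermate control (horizontal) for the 36 ER entry transcripts (red) and all 5783 genes tested (grey, with 31 genes outside the axes); the dashed line marks equal values. Srp14 and Sec11c lie above the line on the left, with control ratios below 1, and Dad1 lies farthest below it.

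The sequences around GGAG in the coding region are shown for 5 of the 6 members that differed from the control and for Rpn1 and Canx, the transcripts with the highest ratios, since GGAG is the sequence that LIN28 is known for and these are the transcripts the results turn on. Each line gives 30 nucleotides of the principal GENCODE M21 transcript (build GRCm38), in the sense direction, around the first GGAG of the coding region that leaves room for both flanks, with every GGAG in capitals (in Dad1 an overlapping pair).
Srp14: agcagttcctgacGGAGctgaccaggctct
Rpn1: gcagcgcctcctcGGAGgctccgccgctgg
Canx: cagttccaacaggGGAGgtttattttgctg
Dad1: tctcccggttcctGGAGGAGtacttgagct
Ssr4: ctgtattcatcgtGGAGatttcactgacct
Ddost: tcattaagtacggGGAGttcctctatgaca
Spcs2: gcgtcgcagggtgGGAGaagcggcggtggc

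These are protein-coding genes at chr2:118475850-118479711 (Srp14, minus strand), chr6:88084482-88105304 (Rpn1, plus), chr11:50293961-50325673 (Canx, minus), chr14:54235479-54254104 (Dad1, minus), chrX:73787028-73790830 (Ssr4, plus), chr4:138304730-138312628 (Ddost, plus) and chr7:99837569-99863462 (Spcs2, minus). Searched on the transcript strand, GGAG was found in the principal transcript of 100% of the members and of 98.9% of all genes tested with a model. The members had a median of 6.02 GGAG per kilobase, against 6.85 over the 5693 genes tested that hold it. Across the 36 members the log2 ratio in tet-LIN28B and the number of GGAG per kilobase had a Spearman's rho of −0.003 (n = 36 genes, which are not independent and share libraries). A match of 4 letters is a description of the sequence and not a binding site.

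In the SRP, which reads the signal sequence, the subunits lay on both sides of equal recovery. Srp14, which with Srp9 forms the Alu domain heterodimer that slows elongation, had 1929.6 and 1819 FPKM in the tet-LIN28B IPs over 852 and 999 FPKM in their inputs, against 792 FPKM in the control IP over 1236 FPKM in the control input. Its ratios were therefore 2.27 and 1.82 in tet-LIN28B and 0.641 in the control. Both tet-LIN28B mice were well above the control, with a log2 difference of 1.66 ± 0.34 (SE, adjusted p = 0.00456, limma). Its partner Srp9 was equally enriched in tet-LIN28B, with ratios of 2.50 and 1.67, but the control ratio was 1.63. Here the lower tet-LIN28B mouse sat at the level of the control, and the log2 difference was 0.32 ± 0.36 (SE, adjusted p = 0.524). Of the 50-base stretches of Srp9, 15.5% also occur in another annotated gene, so its level is less certain than that of Srp14. The 2 partners of the heterodimer thus had like ratios in the LIN28B IP and unlike ratios in the control IP.

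Srp54a, the GTPase that binds the signal sequence, had ratios of 2.35 and 1.57 in tet-LIN28B against 1.05 in the control, with a log2 difference of 0.83 ± 0.36 (SE, adjusted p = 0.104). Of the 50-base stretches of its transcripts, 75.2% also occur in Srp54b or Srp54c, so the 3 copies could not be separated well. Their summed FPKM gave ratios of 1.57 and 1.54 in tet-LIN28B and 0.778 in the control, with a log2 difference of 0.98 (adjusted p = 0.0366, limma, a sum formed after the data were seen). Srp72, which with Srp68 forms the heterodimer at the other end of the particle, was depleted from the IP, with ratios of 0.492 and 0.596 in tet-LIN28B against 0.996 in the control. It did not pass the test against the control (log2 difference −0.84 ± 0.33, SE, adjusted p = 0.0741). Srp68 had ratios of 0.900 and 0.839 against 0.983, and Srp19, which joins the particle during assembly, had 0.868 and 0.811 against 0.849. Neither passed a test.

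The 2 subunits of the SRP receptor stood apart in the IP. Srpr, the soluble subunit that contacts SRP, was enriched with ratios of 1.45 and 1.87 in tet-LIN28B against 1.13 in the control. Srprb had 0.508 and 0.676 in tet-LIN28B against 1.22 in the control. Both tests of tet-LIN28B IP over input passed (adjusted p = 0.00743 for Srpr and 0.0206 for Srprb), whereas neither difference from the control did (adjusted p = 0.246 and 0.0902). The lower call of Srprb was lost when ratios were centred on their median (adjusted p = 0.127). Both levels are uncertain, because 19.9% of the 50-base stretches of Srpr and 28.4% of those of Srprb also occur in other annotated genes. For Srpr the input itself was lower in tet-LIN28B, as given above, and its IP level was lower too, at 38.6 and 57.5 FPKM in tet-LIN28B against 70.5 FPKM in the control.

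The 3 subunits of the Sec61 channel assemble in equal numbers, yet their transcripts had input levels that differed widely per length. Sec61g, the smallest subunit, was at 53.0 and 62.7 FPKM in the inputs of tet-LIN28B mice and 64.3 FPKM in the control input, and Sec61a1, which forms the pore, was at 25.4 and 23.5 FPKM in the inputs of tet-LIN28B mice and 28.7 FPKM in the control input, both far below Sec61b. Sec61g was depleted from the IP with ratios of 0.278 and 0.368 in tet-LIN28B (adjusted p = 3.69e-05) and 0.468 in the control, the lowest control ratio of the set. Because the control was low as well, the log2 difference was −0.52 ± 0.33 (SE, adjusted p = 0.25). Sec61a1 had ratios of 0.809 and 0.934 against 1.24, and Sec61b had 1.06 and 0.893 against 0.665, and neither passed a test. Sec61b and Sec61g share 41.0% and 20.5% of their 50-base stretches with other annotated genes, mostly unnamed gene models, which makes their levels uncertain.

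Of the helpers of the channel, Tram1, a membrane protein next to the incoming chain, was depleted with ratios of 0.555 and 0.779 in tet-LIN28B (adjusted p = 0.020) against 1.10 in the control and a log2 difference of −0.74 ± 0.34 (SE, adjusted p = 0.122). Its lower call was lost with centred ratios (adjusted p = 0.228). Sec62 and Sec63, which serve chains that enter after their synthesis, gave ratios that differed between the tet-LIN28B mice by more than they differed from the control. Sec62 had 0.681 and 1.15 against 1.13, and Sec63 had 1.32 and 0.724 against 0.926. No statement on their enrichment can be made at this spread.

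The TRAP complex, which sits beside the channel, held subunits called in opposite directions in the tet-LIN28B IP. Ssr1 had ratios of 1.77 and 1.90 in tet-LIN28B against 1.55 in the control, and Ssr3 had 1.82 and 1.55 against 1.76. Both passed the test of IP over input (adjusted p = 0.00236 and 0.00485), but the control was enriched to a similar degree, with log2 differences of 0.24 ± 0.33 and −0.06 ± 0.32 (SE). Ssr2 had 1.16 and 1.55 against 0.914 and passed neither test. With centred ratios it was called higher in IP over input (limma adjusted p = 0.0071), and over all settings in 4 of 11. Ssr4 went the other way. It had 25.2 and 46.8 FPKM in the tet-LIN28B IPs over 175 and 233 FPKM in their inputs, against 155 FPKM in the control IP over 247 FPKM in the control input. The ratios of 0.144 and 0.201 were both well below the control's 0.627, a log2 difference of −1.85 ± 0.34 (SE, adjusted p = 0.00277).

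**Figure D3:**
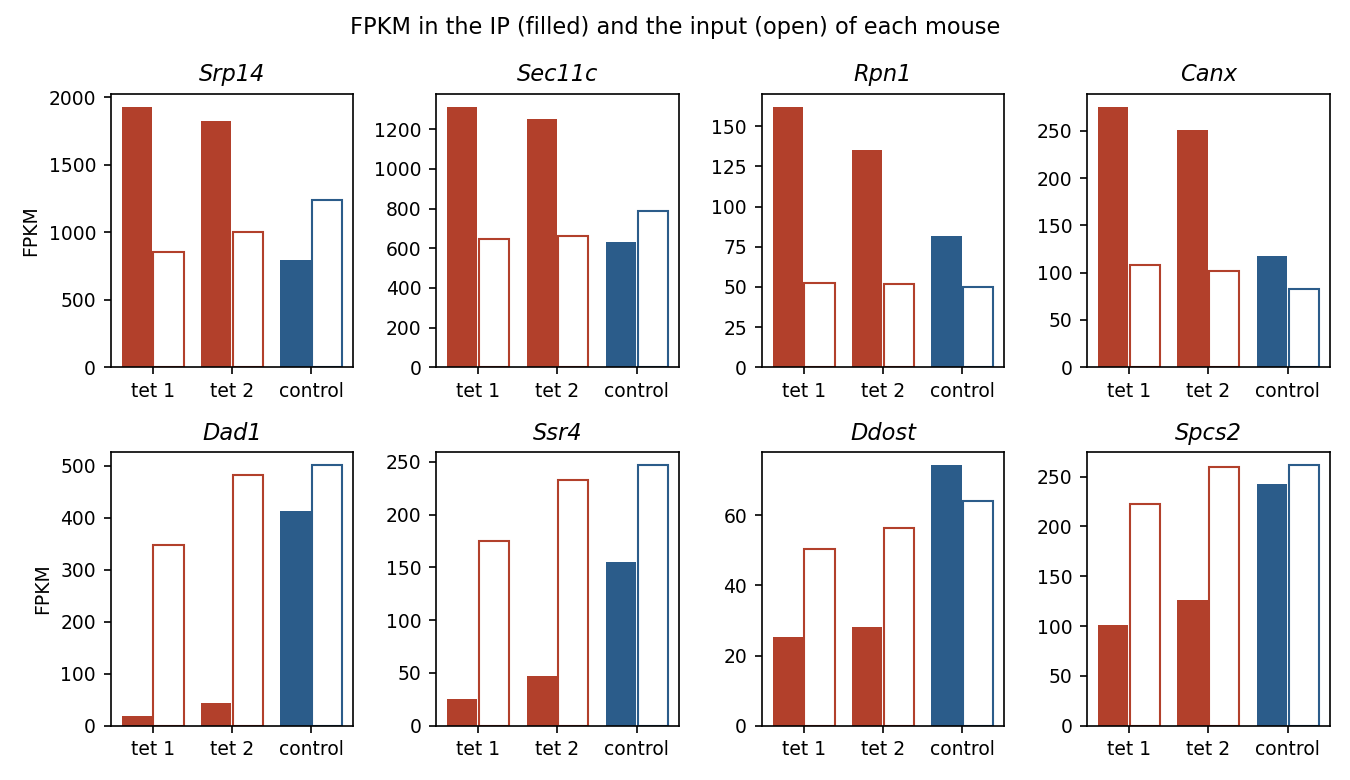
FPKM in the IP (filled bars) and the input (open bars) of tet-LIN28B mouse 1, tet-LIN28B mouse 2 and the littermate control for 8 ER entry transcripts, with a separate vertical axis for each. In the upper row the filled bars of the tet-LIN28B mice exceed their inputs, while in the lower row they fall short of them, and for Dad1 the IP held 19.4 and 44.3 FPKM in the tet-LIN28B mice, against 412 FPKM in the control.

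Signal peptidase held transcripts of both directions and all 5 passed the test of IP over input. Sec11c, 1 of the alternative catalytic subunits, had 1315 and 1254 FPKM in the tet-LIN28B IPs over 649 and 664 FPKM in their inputs, against 629 FPKM in the control IP over 788 FPKM in the control input. The ratios of 2.03 and 1.89 were above the control's 0.799, with a log2 difference of 1.29 ± 0.33 (SE, adjusted p = 0.0137). Sec11a, the other catalytic subunit, had 1.79 and 1.60 against 1.04, and its log2 difference of 0.70 ± 0.32 did not pass (SE, adjusted p = 0.122). Spcs3, an accessory subunit needed for cleavage in yeast, was enriched with 1.95 and 2.14 in tet-LIN28B but also in the control with 1.85.

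The remaining accessory subunits were depleted. Spcs2 had ratios of 0.454 and 0.486 in tet-LIN28B against 0.927 in the control, which passed with a log2 difference of −0.97 ± 0.32 (SE, adjusted p = 0.0394). Spcs1 had 0.346 and 0.461 against 0.673, and its log2 difference of −0.75 ± 0.34 did not pass (SE, adjusted p = 0.114). In these libraries the catalytic subunits of signal peptidase and the accessory Spcs3 therefore lay above their inputs in tet-LIN28B, and Spcs1 and Spcs2 lay below them. Only Sec11c and Spcs2 of this enzyme passed against the control.

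OST spanned the whole range of the set. Dad1, a small membrane subunit named as a defender against cell death, had 19.4 and 44.3 FPKM in the tet-LIN28B IPs over 346 and 482 FPKM in their inputs, against 412 FPKM in the control IP over 501 FPKM in the control input. Its ratios of 0.0561 and 0.0919 in tet-LIN28B were the lowest of all 36 members, and the control ratio was 0.823. The log2 difference was −3.47 ± 0.37 (SE, adjusted p = 0.000255), which ranked 65 from the bottom among the 5783 genes tested. Ddost, a subunit of the core of the enzyme, had ratios of 0.505 and 0.497 against 1.16 in the control. Its log2 difference was −1.18 ± 0.31 (SE, adjusted p = 0.0167).

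The ribophorins of the same enzyme were at the opposite end. Rpn1, which binds substrates and presents them to the catalytic subunit, had 162 and 135 FPKM in the tet-LIN28B IPs over 52.3 and 52.0 FPKM in their inputs, against 81.5 FPKM in the control IP over 50.2 FPKM in the control input. Its ratios of 3.11 and 2.61 were the highest of the set by their average, yet the control also stood at 1.62, and the log2 difference of 0.80 ± 0.32 did not pass (SE, adjusted p = 0.0811). Rpn2 had 2.86 and 1.82 against 1.48. The catalytic subunits gave no call, with Stt3a, which acts on chains during translocation, at 0.793 and 1.05 against 0.884, and Stt3b, which acts after it, at 0.578 and 0.814 against 1.16. Ostc, which links the Stt3a form of the enzyme to the Sec61 channel, had 1.13 and 1.19 against 0.955 and no call either. With centred ratios Ostc was called higher in IP over input (limma adjusted p = 0.032), the only call in 11 settings.

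The lectin chaperones calnexin and calreticulin bind the same glycan but differ in that calnexin is anchored in the membrane. Canx had ratios of 2.54 and 2.46 in tet-LIN28B against 1.43 in the control, and Calr had 0.670 and 0.635 against 1.12. Both passed the test of IP over input (adjusted p = 0.000107 and 0.0127), in opposite directions, but the lower call of Calr was lost with centred ratios (log2 ratio −0.28, adjusted p = 0.188). Their log2 differences from the control were 0.81 ± 0.32 and −0.76 ± 0.32 (SE), and neither passed (adjusted p = 0.0765 and 0.0878).

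Among the disulfide isomerases, P4hb, the classical protein disulfide isomerase, had ratios of 1.44 and 2.39 in tet-LIN28B against 1.12 in the control. Pdia6 had 1.48 and 1.33 against 1.57, above its input in every mouse and lower in both tet-LIN28B mice than in the control. Pdia4 had 0.720 and 0.728 in tet-LIN28B, against 1.27 in the control. These 3 passed the test of IP over input (adjusted p = 0.00385, 0.0383 and 0.0456), and none passed against the control (adjusted p = 0.158, 0.729 and 0.0759). The call of Pdia4 held in 3 of the 9 settings with a test. Pdia3, the isomerase that works with calnexin and calreticulin, had 1.05 and 0.847 against 1.23 and no call.

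Of the 8 groups, 7 held both enriched and depleted members in tet-LIN28B, and 4 did with ratios centred on their median (SRP, TRAP, signal peptidase and OST). In the Sec61 group 2 were lower and none was higher. Over all genes tested, 21.96% were called higher and 43.7% lower in this comparison, and 33.1% and 34.8% with centring. How often groups of other genes hold both directions was not counted. Against the control, only signal peptidase held calls of both directions without centring (1 higher and 1 lower). With centred ratios only OST did (1 higher and 2 lower, where 12.2% of all genes were higher and 18.6% lower), and signal peptidase had 1 higher and 0 lower. The 14 members that were higher in the tet-LIN28B IP than in the input included 12 whose difference from the control was not called (85.7%, against 68.5% of the 1270 genes called higher), and the 11 lower ones included 7 (63.6%, against 45.0% of the 2529 genes called lower).

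Annotated transcript length was examined as a feature that the choice of members did not use. Between the log2 ratio in tet-LIN28B and the longest annotated model, Spearman's rho was 0.262 over the 36 members and 0.353 over the 5759 genes tested that had a model. In the control the values were 0.305 and 0.395. Over the members the relation fell to 0.059 with the mean length of the models, 0.135 with the principal transcript and 0.119 with the coding length, against 0.314, 0.353 and 0.280 over all genes in the same order. In the control the relation over the members was 0.491, 0.447 and 0.374. It thus depended on which length was used. These are descriptions across genes that share libraries, and FPKM itself is divided by length.

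Other genes that act around the same step were described in the same way. Of 27 other ER entry genes tested (further OST subunits, the tail-anchor pathway, the ER membrane complex and ribosome-associated factors), 6 were enriched in the tet-LIN28B IP over the input (against 21.96% of all genes) and 11 were depleted (against 43.7%). Against the control 1 was higher (against 7.18% of all genes) and 6 were lower (against 24.8%), with a median log2 difference of −0.35 (all genes −0.37). The higher one was Btf3, a subunit of the nascent polypeptide-associated complex, with ratios of 1.94 and 1.64 against 0.718 in the control (adjusted p = 0.0142). The next by size was Ostm1, with a log2 difference of 0.61 (adjusted p = 0.202); like Snd1 it stands in the list by name and is not known as a part of this route. The lowest were Krtcap2 and Ost4, both small OST subunits. Krtcap2 had ratios of 0.0352 and 0.0716 against 0.712 (adjusted p = 0.00029), and Ost4 had 0.0513 and 0.0845 against 0.477 (adjusted p = 0.000533).

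Of 31 tested genes for ER chaperones, glycan trimming and the unfolded protein response, 1 was higher than the control (against 7.18% of all genes) and 10 were lower (against 24.8%), with a median log2 difference of −0.71. Fkbp2, an ER prolyl isomerase, was the higher one at 1.82 and 1.63 against 0.869 (adjusted p = 0.0389). Hsp90b1, the ER form of HSP90, followed with 2.98 and 1.95 against 1.43 and did not pass (adjusted p = 0.133). The lowest were Sdf2l1, which works with co-chaperones of BiP, with 0.168 and 0.199 against 1.06 (adjusted p = 0.000497), and Ppib, the ER cyclophilin, with 0.160 and 0.341 against 0.799 (adjusted p = 0.0113).

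Of 31 tested genes for proteins of B cell progenitors that enter the ER by this route, mostly surface proteins, 2 were higher than the control (against 7.18% of all genes) and 18 were lower (against 24.8%), with a median log2 difference of −1.36. The higher ones were Vpreb1 and Vpreb2, which encode part of the surrogate light chain of the pre-B cell receptor. Vpreb1 had ratios of 2.79 and 2.35 against 0.909 (adjusted p = 0.00839), and Vpreb2 had 1.88 and 1.63 against 0.892 (adjusted p = 0.0456). The lowest were Cd74, the invariant chain of MHC class II, with 0.0631 and 0.131 against 1.28 (adjusted p = 0.00032), and Vpreb3 with 0.0503 and 0.070 against 0.645 (adjusted p = 0.000233). No gene of the 3 lists passed the test of the inputs. The difference between the ER entry transcripts and these lists was not tested.

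**Figure D4:**
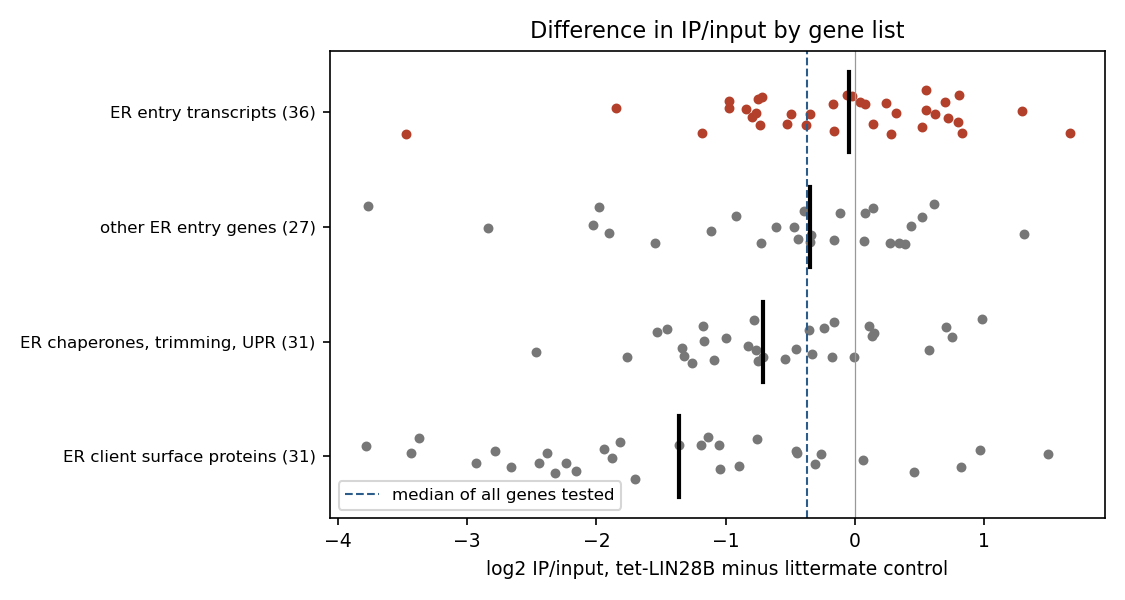
Log2 IP/input of tet-LIN28B minus littermate control for each gene (points, spread vertically at random) of the 36 ER entry transcripts and of 3 related lists, with the median of each list as a black bar and the median over all genes tested as a dashed line. The medians are −0.04 for the ER entry transcripts, −0.35 for other ER entry genes, −0.71 for ER chaperones, trimming and unfolded protein response, and −1.36 for the list of mostly surface proteins, against −0.37 over all genes.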

How the data were processed

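RIP-seq was performed on 6 libraries: IP and input of 2 tet-LIN28B mice and 1 littermate control. Per the labels and methods, cDNA was made with the SMART-Seq v4 kit, and alignment was to mm10 (STAR 2.7.1). The authors deposited FPKM values from RSEM 1.28. Their annotation release was not given in the sources used here. The kit keeps no strand and no molecular identifiers, so overlapping genes and PCR copies could not be told apart.

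Here, log2((IP + 1)/(input + 1)) was fitted per mouse with limma 3.58.1 (R 4.3.3; trend, Benjamini-Hochberg over 5783 genes with at least 10 FPKM in each input). Dividing by the input of the same lysate pairs the libraries: the differences between the tet-LIN28B mice in input and in IP correlated across genes (r = 0.30). The study's filter of 50 FPKM in all 4 tet-LIN28B libraries selects on the IP and was run as an alternative, beside other filters, pseudocounts, TPM scaling, centring and a fit without the pairing. Depth was estimated from whole-fragment steps of values under 0.5 FPKM in genes with a single transcript model. The search chose the depth with the most values within 0.1 of a whole number (95.6 to 97.6%). Fragments behind a member's value were its FPKM multiplied by this depth and the mean annotated model length. Fragment length was not subtracted there, so these counts are too high for short transcripts. The script was tested on simulated data. Members, lists and tests were chosen with earlier results of these data known. Every member is accounted for by complex, and of each other list the 2 highest and 2 lowest by difference from the control are named. Srp54b, Srp54c, Snd1, Tmem258, Tmem147 and Asna1 of the other ER entry genes are named outside that rule. The labels name biological replicates, and a figure legend of the study gives 2 tet-LIN28B mice and 1 control mouse. The text of the study also calls the tet-LIN28B samples technical replicates, and p-values would then measure only the spread between these samples.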

Additional observations from a re-analysis of the deposited data

Results flagged for a closer look

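In 6 ER entry transcripts the IP/input ratio differed between genotypes by limma (adjusted p under 0.05 over all genes tested). On the log2 scale, tet-LIN28B minus control, Dad1 stood at −3.47, Ssr4 at −1.85, Ddost at −1.18 and Spcs2 at −0.97, and Sec11c stood at 1.29 and Srp14 at 1.66. In each of them both tet-LIN28B mice lay on the same side of the control, as they did for 31 of the 36 members and for 88.3% of all genes tested. The control group is a single mouse, and no cause of these differences was tested.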

How the results depend on the processing

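Against the control, 2 members were higher (of all genes, 7.18%) and 4 lower (24.8%). With the methods' filter of 50 FPKM, which 19 members passed, there were 5 higher (of all genes, 23.2%) and 3 lower (22.2%), and Dad1, Ssr4 and Ddost were not tested. Centring on the median gave 5 higher (of all genes, 12.2%). For IP over input it gave 7 lower (34.8%) in place of 11 (43.7%), and the methods' filter gave 3 lower (35.1%) there. With no filter beyond a value above 0 (26505 genes), limma called 0 genes in any comparison; IP over input had 0 higher and 0 lower members, with 9 and 9 at an unadjusted p under 0.05, and the difference had 0 and 0, with 4 and 6. The cause was not tested. Without the pairing of IP and input within a mouse (no replicate block), 1 member was higher (Srp14) and 1 lower (Dad1). Over all settings run, Srp14 was called in 10 of 11, Dad1 in 9 of 10, Sec11c in 9 of 11, Ssr4 in 8 of 10, Ddost in 7 of 10 and Spcs2 in 6 of 11. No call changed direction. The count of average ratios above 2 was 6, against 2 in each of both mice and 4 to 7 with a tet-LIN28B mouse left out; the count below 0.5 was then 6. Leaving out a mouse left no residual degrees of freedom, so no test could be run. The length relation of 0.262 was 0.059, 0.135 or 0.119 with other lengths, the last 2 chosen after seeing the data. Of 666 tested alternatives for single members, 578 kept direction and call, 52 lost the call, 18 gained it and 18 changed direction without a call in either. Of 144 values with a mouse left out, 10 changed direction, none of them of a called member. The fewest estimated fragments behind a member's value were 167, and 3 mice were measured.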

Other observations

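The RNA scaffold of the SRP, 7SL RNA, is listed under Rn7s1 and Rn7s2, near-identical copies that were looked at after the values were seen and are given as a sum. It had 539.7 and 1097 FPKM in the tet-LIN28B IPs over 37604 and 19554 FPKM in their inputs, against 8859 FPKM in the control IP over 16444 FPKM in the control input. The ratios were 0.0144 and 0.0561 in tet-LIN28B and 0.539 in the control, unlike those of Srp9 and Srp14, whose proteins bind this RNA. 7SL RNA has no long poly(A) tail, so its capture in these libraries is uncertain, and no test was made.

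Of the small OST subunits, Tmem258 was also low, with ratios of 0.202 and 0.224 in tet-LIN28B against 0.802 in the control (limma adjusted p = 0.00194). Tmem258 was named after its values were seen because Dad1, Krtcap2 and Ost4 were low as well. Of all genes tested, 24.8% were called lower than the control. In the list of other ER entry genes, Tmem147 and Asna1 were also lower than Tmem258 (log2 differences of −2.02 and −1.98, against −1.91). These values are therefore no test of small OST subunits as a group. Ostc, with a coding length of 447 nucleotides against 339 for Dad1, was not low. Its ratios were 1.13 and 1.19 in tet-LIN28B against 0.955 in the control, and its difference from the control was not called.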
